A study of Homo sapiens with 12 samples.

Results

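The TRAIL system is described here at the level of its transcripts, in U87 cells kept under hypoxia with and without the hypoxia-inducible factors HIF1α and HIF2α. The genes were chosen by name, as the ligand, its receptors and the first proteins those receptors recruit, and their rows were found by matching gene identifiers to symbols. They were TNFSF10, TNFRSF10A, TNFRSF10B, TNFRSF10C, TNFRSF10D, FAS, TNFRSF1A, FADD, CASP8 and RIPK1, so 10 of the 20263 genes measured. Of these, 8 had a value of at least 1 in at least 3 libraries and were tested among 11731 genes. TNFSF10 and TNFRSF10A lay below that limit in every group and were tested only in an alternative with no filter.

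Messenger RNA was sequenced from U87 cells held for 72 h at 1% O2. U87 is the line U-87 MG, grown from a human glioblastoma and long established. There were 4 groups of 3 libraries. The vector group carried an empty vector, HIF1α-ko had HIF1α knocked out, HIF2α-ko had HIF2α (gene EPAS1) knocked out, and HIF1α/2α-ko was the dual knockout. All 4 groups were hypoxic, so there was no group at normal oxygen. How the knockout lines were made, and whether a line was 1 clone, is not given in the sources used here. The values are TPM, in which the reads of a gene are divided by its length and each library is scaled to the same total, so levels can be compared between genes but sequencing depth is unknown. Nothing says that replicates were separate cultures, so each p-value measures the spread between these libraries, which may be technical.

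TRAIL, the product of TNFSF10, is a ligand of the tumor necrosis factor family that can set off apoptosis in tumor cells. It binds a pair of receptors with an intracellular death domain, DR4 (TNFRSF10A) and DR5 (TNFRSF10B), and a pair of decoys, DcR1 (TNFRSF10C), which is held in the membrane by a lipid anchor and has no intracellular part, and DcR2 (TNFRSF10D), whose death domain is truncated. Bound DR4 and DR5 gather the adaptor FADD and the initiator caspase-8 (CASP8) into a death-inducing complex, while FAS uses the same adaptor and the tumor necrosis factor receptor TNFR1 (TNFRSF1A) works through a complex that holds the kinase RIPK1.

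The promoters shown are those of TNFSF10, whose transcript was listed at 0 in all HIF1α/2α-ko libraries, and of FADD and RIPK1, the members called higher in HIF1α-ko. The sequences are from RefSeq (GRCh38.p14), which held a promoter for 6 of the 10 genes, and each window began 250 bases before an annotated start. From the sequences shown, bases at or past the start of the gene in GENCODE 29 are left out. Capitals mark the GC box GGGCGG on either strand, and neither HIF core, ACGTG or GCGTG, occurs in these windows on either strand. Some windows not shown did hold a HIF core. CASP8 had 1 in each of chr2:201257785-201258034 and chr2:201260286-201260535, and FAS had 2 in chr10:88991181-88991430. Those windows were read over their full 250 bases and lie inside the genes as placed by GENCODE 29. Over all 35116 promoters, each read over 250 bases and thus not shortened, 43.2% held a HIF core and 42.6% a GC box. RIPK1 held 2 GC boxes, which overlap each other, FADD held 2 over its 250 bases, of which 1 lies in the stretch shown, and TNFSF10 held 0. A match is a description of letters and not a site of binding.

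TNFSF10, chr3:172523508-172523680, minus strand: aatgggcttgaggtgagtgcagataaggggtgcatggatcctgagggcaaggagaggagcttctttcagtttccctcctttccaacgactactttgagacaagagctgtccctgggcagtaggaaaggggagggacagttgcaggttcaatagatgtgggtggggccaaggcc
FADD, chr11:70203046-70203162, plus strand: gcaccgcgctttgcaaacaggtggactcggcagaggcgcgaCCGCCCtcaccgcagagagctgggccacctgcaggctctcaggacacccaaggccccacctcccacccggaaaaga
RIPK1, chr6:3063717-3063966, plus strand: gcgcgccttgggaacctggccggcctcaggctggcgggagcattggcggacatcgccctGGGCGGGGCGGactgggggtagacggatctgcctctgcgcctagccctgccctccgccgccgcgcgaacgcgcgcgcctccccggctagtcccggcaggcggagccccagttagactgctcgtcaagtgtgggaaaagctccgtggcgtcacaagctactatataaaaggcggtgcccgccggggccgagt

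The windows differed in base composition. CG steps numbered 32 in the 250 bases before FADD, 29 before this RIPK1 start and 2 before TNFSF10. RefSeq holds 3 starts for RIPK1, and the first along the chromosome is shown.

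Several facts of the libraries bear on every value that follows. The targeted transcripts were reduced and not absent. HIF1A was 124 ± 23.5 TPM in vector (mean ± SD, n = 3 here and below) and 48.5 ± 9.35 in HIF1α-ko. It was 75.5 ± 11.9 TPM in HIF1α/2α-ko and 86.8 ± 18.1 in HIF2α-ko, where it was not targeted. The difference between these last groups was not called (log2 -0.19, SE 0.20, adjusted p = 0.453). HIF1A was higher in the dual knockout than with HIF1α-ko (log2 0.64, adjusted p = 0.0287). EPAS1 was 322 ± 31.5 TPM in vector, 107 ± 17.0 in HIF2α-ko and 117 ± 14.4 in the dual knockout. Vector replicate 1 correlated with its group at r = 0.966 to 0.968 over the tested genes, where the other pair of vector libraries gave 0.989, and HIF1α/2α-ko replicate 1 stood at 0.976 to 0.977 against 0.992. Both libraries stand apart in several of the genes below, and values without replicate 1 of every group are given where they change a call or a sign against vector. All 6 markers of this mesenchymal glioma line were above 1 TPM in all 12 libraries. Of the astrocyte markers, GFAP stayed at or below 0.639 TPM and AQP4 was listed at 0 throughout, while immune, epithelial and oligodendrocyte markers never reached 1 TPM. SLC1A3 and ALDH1L1, also astrocyte markers, and the neuronal SNAP25 were above 1 TPM in all 12 libraries, and the 3 endothelial markers summed to 1.15 to 7.08 TPM. Some of these sums moved with the groups. The 3 neuronal markers summed to 3.68 to 4.70 TPM in vector and 1.79 to 2.85 in the dual knockout, and the endothelial markers to 3.72 to 7.08 in HIF2α-ko, 1.60 to 6.64 in vector and 1.15 to 1.89 in the dual knockout. The 6 markers of the line itself summed to 13990 to 18001 TPM in vector and 7509 to 11058 in the dual knockout. The part of these in the results was not tested.

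The median change over all tested genes was not 0. Against vector it was 0.18 for HIF1α-ko, -0.04 for HIF2α-ko and 0.21 for the dual knockout, all as log2 changes of TPM + 1, which understate the change of low genes. With median ratio scaling these medians became 0.01, -0.00 and -0.00. In HIF1α/2α-ko 68.2% of the called genes were higher as deposited and 50.6% after that scaling, and in HIF1α-ko the shares were 66.4% and 45.4%. A gene counts as called here when its limma adjusted p was under 0.05.

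The ligand was barely detected. TNFSF10 (ENSG00000121858, GRCh38 chr3:172505508-172523507, minus strand, protein-coding) gave 0.428, 0.318 and 0.571 TPM in the vector libraries. HIF1α-ko held 0.276, 0.195 and 0 TPM, and HIF2α-ko held 0.539, 0.410 and 0.556. The gene was listed at 0 in all 3 HIF1α/2α-ko libraries. Every HIF1α/2α-ko library was thus below every vector and HIF2α-ko library, and the HIF1α-ko libraries lay below those of vector as well. The gene was tested only in the alternative with no filter on low genes, where limma called it lower in HIF1α/2α-ko (adjusted p = 0.00126) and HIF1α-ko (adjusted p = 0.0335) than in vector, and not in HIF2α-ko (adjusted p = 0.751). No fold is given against a group at 0. An exact 0 in this table can also be a missing estimate, since FAF1, a widely expressed gene, was listed at 0 in all 12 libraries.

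DR4 was near the floor too. TNFRSF10A (ENSG00000104689, GRCh38 chr8:23190452-23225126, minus strand) was listed at 0, 0.134 and 0.134 TPM in vector. HIF1α-ko held 0.132, 0.0324 and 0.243 TPM, and HIF2α-ko 0, 0.0330 and 0.0313. It was at 0 in the 3 HIF1α/2α-ko libraries. The groups overlapped, apart from the dual knockout and HIF1α-ko, and with no filter none of the 7 contrasts was called by limma, with adjusted p from 0.0748 to 0.778. The 4 TRAIL receptor genes share no run of 50 bases in their GENCODE 29 transcripts, so a full match over that length could not move reads from one to another.

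DR5 carried almost all of the transcript of the 2 TRAIL receptors with a death domain, DR4 and DR5, and was higher in the dual knockout. TNFRSF10B (ENSG00000120889, GRCh38 chr8:23020133-23069179, minus strand) gave 77.4, 78.2 and 69.9 TPM in vector and 111, 202 and 191 in HIF1α/2α-ko. HIF1α-ko held 94.2, 118 and 115 TPM, and HIF2α-ko 75.7, 87.2 and 84.2. All HIF1α-ko libraries lay above all vector libraries, and 2 of the 3 HIF1α/2α-ko libraries were higher than any library of another group, whereas HIF1α/2α-ko replicate 1 fell inside the HIF1α-ko range. The change in HIF1α/2α-ko was 1.10 ± 0.20 (log2, ± SE, adjusted p = 0.000662), a 2.14-fold rise of TPM + 1, and it was called under all 21 alternatives, at 0.85 to 1.40. In HIF1α-ko it was 0.53 ± 0.20 (adjusted p = 0.0643), not called, with a 95% interval of 0.10 to 0.95. This value was called in a fit of those groups only (adjusted p = 0.043) and with a block by replicate number (adjusted p = 0.0309). It was also called without HIF1α/2α-ko replicate 1 (adjusted p = 0.00818), which enters only through the shared spread. Without replicate 1 of every group it was called too (adjusted p = 0.000574). The other 17 of 21 alternatives left it uncalled. Over all 21 the change was 0.33 to 0.65, with limma adjusted p up to 0.182. In HIF2α-ko it was 0.13 ± 0.20 (adjusted p = 0.729), with an interval of -0.30 to 0.55. RHOBTB2 overlaps this gene on the other strand at 2.45 to 8.74 TPM, and whether reads were counted by strand is not given.

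DcR1 moved in opposite directions in HIF2α-ko and in the dual knockout. TNFRSF10C (ENSG00000173535, GRCh38 chr8:23102590-23117437, plus strand) gave 28.1, 29.03 and 27.6 TPM in vector and 24.7, 25.3 and 25.4 in HIF1α-ko. HIF2α-ko held 41.2, 42.1 and 46.5 TPM, and the dual knockout 13.1, 13.2 and 15.2. No library of any group fell inside the range of another group, and the order of the groups was HIF2α-ko, vector, HIF1α-ko, HIF1α/2α-ko. The gene rose by 0.60 ± 0.12 in HIF2α-ko (adjusted p = 0.00896) and fell by 0.98 ± 0.12 in the dual knockout (adjusted p = 4.6e-05), while HIF1α-ko gave -0.16 ± 0.12 (adjusted p = 0.327). The rise in HIF2α-ko was no longer called without HIF2α-ko replicate 3 (log2 0.54, adjusted p = 0.051) or in a fit of those groups only. The fall in the dual knockout was called in all 21 alternatives, at -1.26 to -0.95. GENCODE 29 also places AC107959.5, a protein-coding gene, and a lincRNA over this gene on the same strand, neither of which was analysed here, and how shared reads were assigned is not given.

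DcR2 was the more abundant decoy and fell furthest. TNFRSF10D (ENSG00000173530, GRCh38 chr8:23135588-23164030, minus strand) gave 61.6, 79.3 and 88.3 TPM in vector and 21.0, 25.3 and 28.1 in HIF1α/2α-ko. The single knockouts lay between, with 43.2, 64.0 and 60.2 TPM in HIF1α-ko and 43.8, 65.5 and 62.6 in HIF2α-ko. The dual knockout did not overlap any group, and the single knockouts overlapped both each other and vector. The fall in HIF1α/2α-ko was 1.58 on the log2 scale (SE 0.20, adjusted p = 7.6e-05), a ratio of 0.335, and it was called under all 21 alternatives. HIF1α-ko gave -0.45 ± 0.20 (adjusted p = 0.120) and HIF2α-ko -0.41 ± 0.20 (adjusted p = 0.218). With the replicate block both were called (adjusted p = 0.00976 and 0.0228), though vector libraries were not taken as paired with knockouts by number. Both were also called when replicate 1 of every group was dropped (log2 -0.43 and -0.38, adjusted p = 0.00716 and 0.0181). The HIF1α-ko value was also called with median ratio scaling (log2 -0.64) and without vector replicate 1 (adjusted p = 0.0477). Of 21 alternatives, 17 left the HIF1α-ko value uncalled and 19 the HIF2α-ko value.

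Read against all genes, these counts were as follows. In HIF1α/2α-ko 1 of the 8 tested members was called higher, where 31.8% of all tested genes were, and 2 were called lower, where 14.8% were. For HIF2α-ko 1 member was called higher against 5.07% of all genes and 0 lower against 5.89%, and 0 were lower at an unadjusted limma p under 0.05. In HIF1α-ko 2 were called higher against 17.3% and 0 lower against 8.77%, and 1 (TNFRSF10D) was lower at an unadjusted limma p under 0.05. The median change of the 8 members in HIF1α/2α-ko was -0.24 beside 0.21 over all tested genes, and in the single knockouts it was 0.18 beside 0.18 and 0.06 beside -0.04. The 3 comparisons share the vector libraries.

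**Figure D1:**
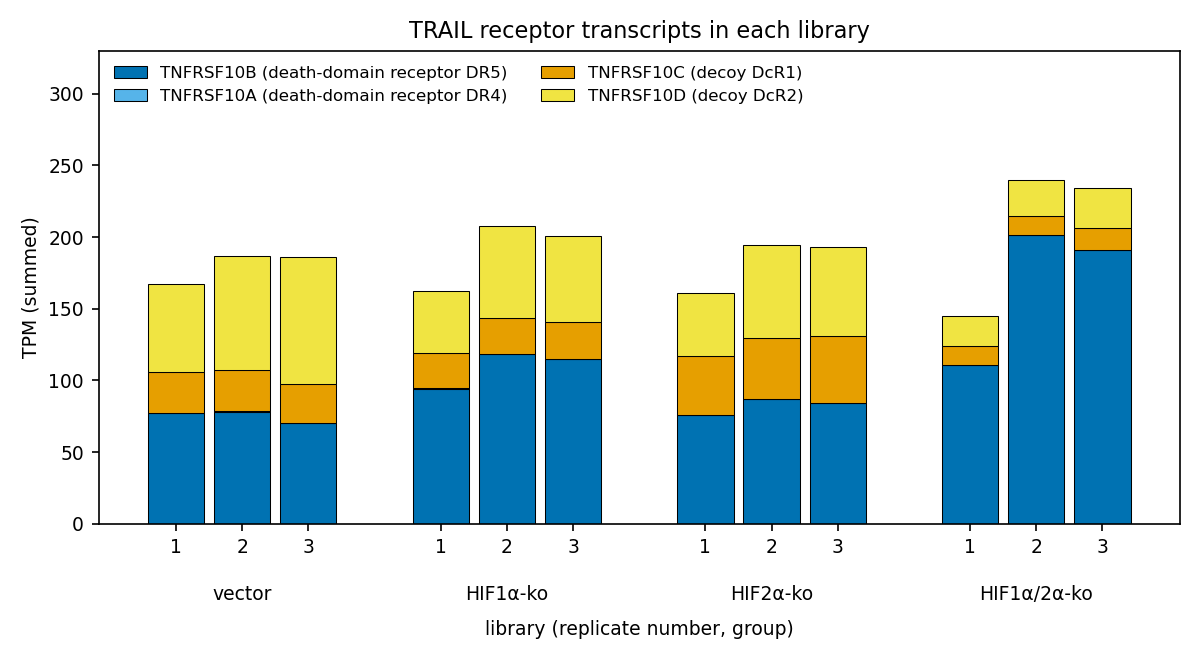
Stacked bars give the TPM of TNFRSF10B, TNFRSF10A, TNFRSF10C and TNFRSF10D in each of the 12 libraries (x axis, replicate number within group). The decoy segments sum to between 34.1 and 43.4 TPM in HIF1α/2α-ko and to between 67.9 and 116 TPM in the other groups.

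The makeup of the TRAIL receptors shifted accordingly. The decoys together took 58.0 ± 4.32% of the summed TPM of the 4 receptor genes in vector. The single knockouts had 42.5 ± 0.582% (HIF1α-ko) and 54.9 ± 1.81% (HIF2α-ko), and the dual knockout had 19.4 ± 3.84%. In the vector libraries the share was 53.7%, 58.0% and 62.3%, and in HIF1α/2α-ko it was 23.6%, 16.03% and 18.5%. No library of HIF1α/2α-ko or HIF1α-ko overlapped another group, while vector and HIF2α-ko overlapped. There were 0.730 ± 0.130 TPM of TNFRSF10B for each TPM of decoy in vector and 4.29 ± 1.00 in HIF1α/2α-ko, with 1.35 ± 0.0318 in HIF1α-ko and 0.824 ± 0.0608 in HIF2α-ko. The summed level of the receptors changed less, from 167 to 187 TPM in vector and from 145 to 240 in HIF1α/2α-ko, with the lowest sum of all in HIF1α/2α-ko replicate 1. Without replicate 1 of every group the shares were 60.2%, 42.8%, 55.8% and 17.3%. The share is a ratio within each library, so the scaling of the libraries does not enter it, and no test was made of it.

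FAS and TNFR1 showed no called change. FAS (ENSG00000026103, GRCh38 chr10:88990582-89015785, plus strand), the death receptor for FAS ligand, gave 9.11, 3.73 and 3.24 TPM in vector and 4.58, 4.72 and 3.55 in HIF1α-ko. HIF2α-ko held 6.41, 3.24 and 5.31 TPM, and the dual knockout 5.85, 3.68 and 3.67. The groups overlapped, and vector replicate 1 was above every other library. The log2 changes were -0.16 (95% interval -0.84 to 0.52), -0.01 (-0.69 to 0.67) and -0.15 (-0.83 to 0.54), with adjusted p = 0.735, 0.990 and 0.728. Their sign turned without vector replicate 1. FAS shares its region with ACTA2 on the other strand, at 79.6 to 151 TPM, so its low values carry that limit.

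TNFRSF1A (ENSG00000067182, GRCh38 chr12:6328757-6342114, minus strand) was the most abundant member, at rank 577 of the 16881 genes above 0. It gave 336, 242 and 239 TPM in vector and 246, 232 and 207 in HIF1α-ko. HIF2α-ko held 259, 230 and 231 TPM, and the dual knockout 231, 201 and 207. All 3 HIF1α/2α-ko libraries lay below all vector libraries, and vector replicate 1 stood far above the rest. The log2 change in HIF1α/2α-ko was -0.34 ± 0.14 (adjusted p = 0.0661), not called. It was called with median ratio scaling at -0.59 (adjusted p = 0.0161), with quantile normalization (adjusted p = 0.0305) and without vector replicate 3 (adjusted p = 0.046). Calls also came with the replicate block (adjusted p = 0.016) and when replicate 1 was dropped from all groups (log2 -0.24, adjusted p = 0.0242). Of 21 alternatives, 16 left the change uncalled. Its range over all 21 was -0.59 to -0.18, with limma adjusted p up to 0.197. The smallest fall, -0.18, was found without vector replicate 1. In HIF1α-ko and HIF2α-ko the values were -0.24 ± 0.14 and -0.17 ± 0.14 (adjusted p = 0.217 and 0.483).

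**Figure D2:**
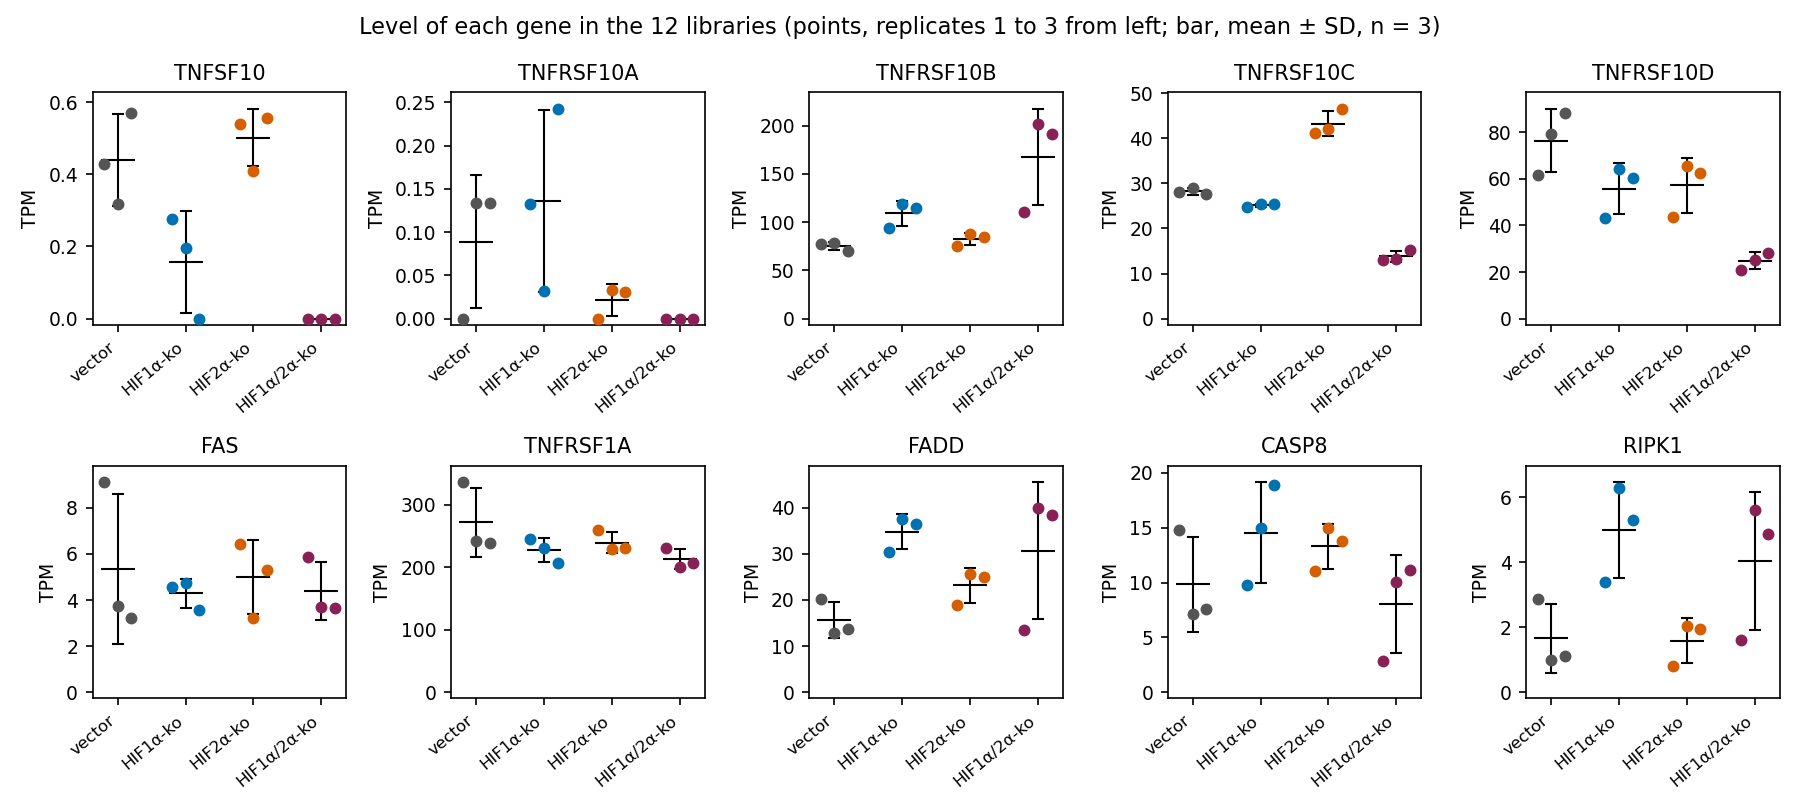
Each panel gives the TPM of 1 gene (y axis, own scale) in the 4 groups (x axis), with points for libraries and a bar for the mean ± SD of 3 libraries. TNFRSF10C separates all 4 groups, and FADD in HIF1α/2α-ko splits into 13.5 TPM in replicate 1 and 38.5 to 39.9 TPM in the other libraries.

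The adaptor FADD was called higher in HIF1α-ko, and not in the dual knockout with all 12 libraries. FADD (ENSG00000168040, GRCh38 chr11:70203163-70207390, plus strand), which links the death domains of the receptors to caspase-8, gave 20.2, 12.9 and 13.8 TPM in vector and 30.5, 37.5 and 36.4 in HIF1α-ko. HIF2α-ko held 18.8, 25.6 and 25.0 TPM, and HIF1α/2α-ko 13.5, 39.9 and 38.5. The HIF1α-ko libraries did not overlap those of vector, whereas HIF1α/2α-ko replicate 1 lay inside the vector range and the other 2 above it. The rise in HIF1α-ko was 1.13 ± 0.33 (adjusted p = 0.0267). It was lost when replicate 2 or replicate 3 of either group was left out, with adjusted p up to 0.093, and when no filter on low genes was used (adjusted p = 0.0526). HIF1α/2α-ko gave 0.81 ± 0.33 (adjusted p = 0.0623), which was called without HIF1α/2α-ko replicate 1 (log2 1.30, adjusted p = 0.000364) and without vector replicate 1 (log2 1.00, adjusted p = 0.0433). It was also called without replicate 1 of every group (log2 1.49, adjusted p = 1.03e-05). The other 18 of 21 alternatives left it uncalled. Over all 21 the change was 0.54 to 1.49, with limma adjusted p up to 0.236. HIF2α-ko gave 0.55 ± 0.33 (adjusted p = 0.312). Dropping replicate 1 of every group gave 0.88 there (adjusted p = 0.000424).

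RIPK1 followed the same libraries at a lower level. RIPK1 (ENSG00000137275, GRCh38 chr6:3063991-3115187, plus strand), a kinase of the TNFR1 complex, gave 2.88, 0.980 and 1.11 TPM in vector and 3.39, 6.28 and 5.32 in HIF1α-ko. HIF2α-ko held 0.792, 2.04 and 1.94 TPM, and the dual knockout 1.62, 5.62 and 4.88. HIF1α-ko lay above vector in all libraries, by little for its replicate 1, and HIF1α/2α-ko overlapped vector through its replicate 1. The rise in HIF1α-ko was 1.21 ± 0.37 (adjusted p = 0.0318), and it was lost without the same 4 libraries as for FADD, with adjusted p up to 0.115, and with no filter (adjusted p = 0.0629). HIF1α/2α-ko gave 0.88 ± 0.37 (adjusted p = 0.0685), which was called without HIF1α/2α-ko replicate 1 (log2 1.30, adjusted p = 0.0069) or vector replicate 1 (log2 1.19). It was also called without replicate 1 of every group (log2 1.61, adjusted p = 3.7e-05). The other 17 of 20 alternatives left it uncalled. Over all 20 the change was 0.63 to 1.61, with limma adjusted p up to 0.237. HIF2α-ko gave -0.01 ± 0.37 (adjusted p = 0.997), with an interval of -0.81 to 0.80. Dropping replicate 1 of every group gave 0.55 there (adjusted p = 0.0136).

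Caspase-8 itself was not called against vector with all 12 libraries. CASP8 (ENSG00000064012, GRCh38 chr2:201233443-201287711, plus strand) gave 14.8, 7.11 and 7.60 TPM in vector and 9.75, 15.0 and 18.9 in HIF1α-ko. HIF2α-ko held 11.1, 15.0 and 13.8 TPM, and the dual knockout 2.87, 10.1 and 11.2. All groups overlapped, with vector replicate 1 high and HIF1α/2α-ko replicate 1 lowest of all. The log2 changes were 0.55 ± 0.40, 0.46 ± 0.40 and -0.36 ± 0.40 (adjusted p = 0.330, 0.505 and 0.487). When replicate 1 of every group was dropped, all 3 were called higher, at 1.10 (adjusted p = 0.000483), 0.88 (adjusted p = 0.0024) and 0.47 (adjusted p = 0.0149), so the direction in the dual knockout rests on those libraries.

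Without replicate 1 of every group, 7 of the 8 tested members were called in the dual knockout and 5 in each single knockout. Calls were more frequent over all genes as well. Of all tested genes 45.3% were then called higher and 19.0% lower in the dual knockout, 39.2% and 15.9% with HIF1α-ko, and 20.5% and 16% with HIF2α-ko. Beside these, 4 of the 8 members were higher and 3 lower in the dual knockout, and 4 higher and 1 lower in each single knockout. TNFRSF10B, FADD, RIPK1 and CASP8 were higher and TNFRSF10C, TNFRSF10D and TNFRSF1A lower in the dual knockout. The median change of the members in the dual knockout was 0.27 and that of all tested genes 0.30. This alternative was added after the values had been seen.

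**Figure D3:**
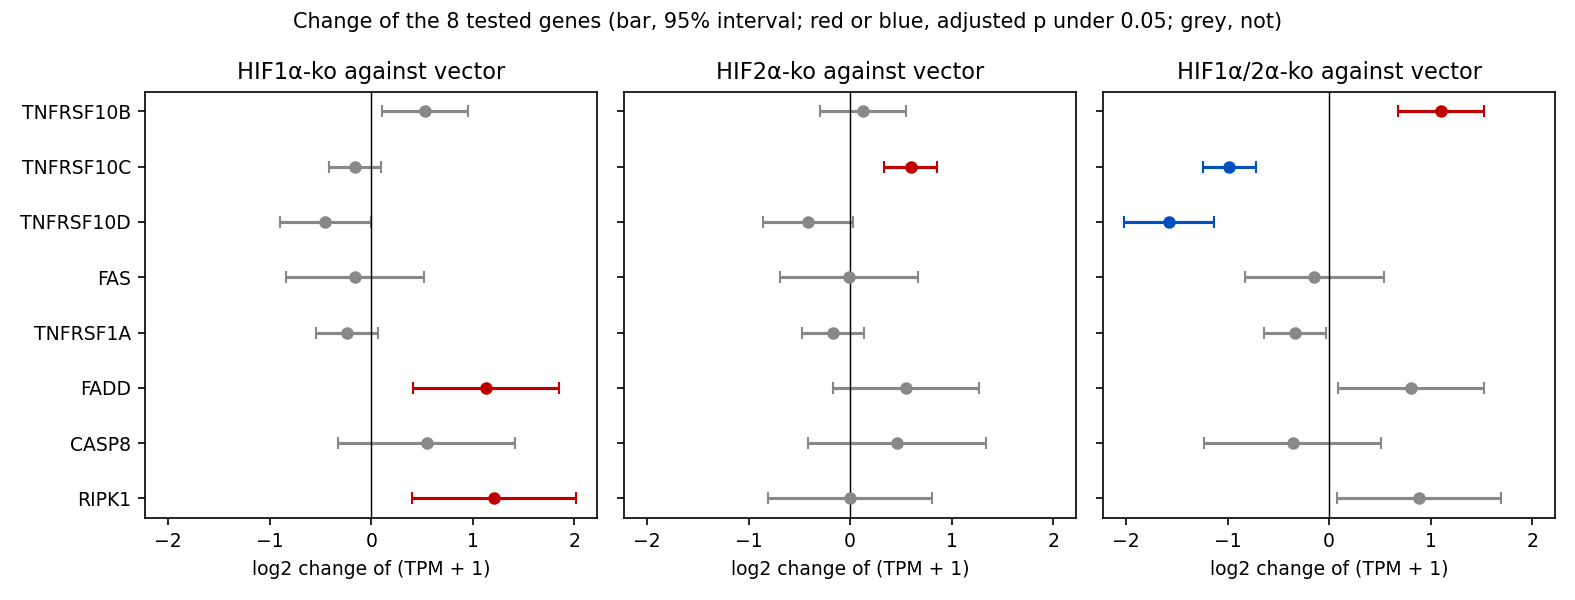
Points give the log2 change of TPM + 1 (x axis) of the 8 tested members (y axis) for each knockout against vector, with 95% intervals. TNFRSF10C lies at 0.60 in HIF2α-ko and at -0.98 in the dual knockout, and the intervals of CASP8 and FAS include 0 in all 3 comparisons.

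The dual knockout was next compared with each single knockout. Against HIF1α-ko, TNFRSF10C fell by 0.82 ± 0.12 (adjusted p = 0.000429) and TNFRSF10D by 1.13 ± 0.20 (adjusted p = 0.00175), and TNFRSF10B rose by 0.57 ± 0.20 (adjusted p = 0.0446). So 3 of 8 members were called, where 28.3% of all genes were. The TNFRSF10B difference was lost in 14 of 22 alternatives, among them no filter, quantile normalization and most of the libraries left out, with adjusted p from 0.000449 to 0.173. Against HIF2α-ko, TNFRSF10C fell by 1.58 ± 0.12 (adjusted p = 2.21e-06), TNFRSF10D by 1.16 ± 0.20 (adjusted p = 0.000645), and TNFRSF10B rose by 0.97 ± 0.20 (adjusted p = 0.00156). These are 3 of 8 members, where 46.4% of all genes were called, and all were called in each of 22 alternatives.

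Among the 3 knockout groups, libraries of one replicate number moved together around their group means, so these comparisons were also made with the number as a block. Replicates 2 and 3 of different groups moved together as much as same-numbered ones (r = 0.158 to 0.302 against 0.196 to 0.250), so what sets the numbers apart is replicate 1 (r = 0.463 to 0.508). With this pairing CASP8 was called lower in the dual knockout than with HIF1α-ko (log2 -0.91, adjusted p = 0.0163) and than in HIF2α-ko (-0.82, adjusted p = 0.0182). As deposited and without the block the values were the same in size, with adjusted p = 0.112 and 0.113. Quantile normalization also called both (adjusted p = 0.034 and 0.0158), as did dropping replicate 1 of every group (adjusted p = 0.00745 and 0.0288). Median ratio scaling called the difference from HIF2α-ko (adjusted p = 0.0227). Of 22 alternatives, 19 left CASP8 uncalled against HIF1α-ko and 18 against HIF2α-ko. RIPK1 was called higher than in HIF2α-ko with the block (log2 0.89, adjusted p = 0.00142) and not as deposited without it (adjusted p = 0.0672). Unblocked, it was called without vector replicate 1 (adjusted p = 0.0497) and without HIF1α/2α-ko replicate 1 (adjusted p = 0.00681). Dropping replicate 1 of every group called it too (adjusted p = 0.000307). The other 17 of 21 alternatives left RIPK1 uncalled. Within each replicate number CASP8 was lower in HIF1α/2α-ko than in both single knockouts.

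Between the single knockouts, TNFRSF10C differed by 0.76 ± 0.12 (adjusted p = 0.000966), with HIF2α-ko higher, and RIPK1 in HIF2α-ko fell by 1.22 ± 0.37 (adjusted p = 0.0323). These 2 of 8 members compare with 25.1% of all genes. The RIPK1 call was lost in 6 of 21 alternatives, with adjusted p up to 0.126. TNFRSF10B was lower in HIF2α-ko with the replicate block (log2 -0.40, adjusted p = 0.0366) and not called as deposited without it (adjusted p = 0.147). Unblocked, it was called in a fit of those groups only (adjusted p = 0.0386) and without HIF1α/2α-ko replicate 1 (adjusted p = 0.0281). Dropping replicate 1 of every group called it too (log2 -0.44, adjusted p = 0.00438). The other 18 of 22 alternatives left it uncalled.

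Whether the dual knockout equalled the sum of the single knockouts was asked with an interaction term. It was called for TNFRSF10C at -1.42 ± 0.17 (adjusted p = 0.000544), 1 of 8 members where 20.6% of all genes were called. The sum of the single changes was a small rise, from -0.16 and 0.60, and the dual change was -0.98. For TNFRSF10D the term was -0.71 ± 0.29 (adjusted p = 0.1), not called, and 15 of 20 alternatives left it so. It was called in 5, among them median ratio scaling, quantile normalization and the replicate block. That block also numbers the vector libraries, which were not taken as paired. For TNFRSF10B it was 0.44 ± 0.28 (adjusted p = 0.275), for FADD -0.87 ± 0.47 (adjusted p = 0.206) and for CASP8 -1.37 ± 0.57 (adjusted p = 0.108).

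Genes whose levels ran most like those of 3 members over the 12 libraries were named as a description. For TNFRSF10B these were CHST2 (Pearson's r = 0.988), GPATCH4 (0.987) and ANKS6 (0.985). For TNFSF10 they were PSD4 (0.951), PPDPFL (0.941) and NIPAL3 (0.936), and for FAS they were PLB1 (0.884), MYBPH (0.852) and PDE4B (0.841). The points are libraries of 4 groups that share replicate numbers, so r reflects group means as well as the spread within groups.

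The other genes of the pathway were taken from 7 lists that hold 74 genes. Among the other receptors of the family 6 of the 9 tested genes were called higher in HIF1α/2α-ko and 1 lower, and the median change was 0.69 beside 0.21 over all tested genes. The share of all tested genes called higher was 31.8%, and 23.5% with median ratio scaling, which are the values to set beside the counts of each list that follows. TNFRSF21, the death-domain receptor DR6, went from 0.202 to 0.569 TPM in vector to 14.3 to 16.7 in HIF1α/2α-ko, a log2 change of 3.59 ± 0.14 (adjusted p = 3.38e-08). TNFRSF12A, the receptor of the cytokine TWEAK, rose by 2.05 ± 0.20 (adjusted p = 1.29e-05), from 35.4 to 46.1 TPM to 134 to 210. TNFRSF1B, which encodes TNFR2 and has no death domain, rose by 1.39 ± 0.19 (adjusted p = 0.000111). With median ratio scaling 4 of the 9 were called higher and 1 lower.

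Ligands and soluble decoys were scarce. Of the 9 other ligands only TNFSF12, which encodes TWEAK, passed the limit for testing, and it fell by 0.52 ± 0.20 in HIF1α/2α-ko (adjusted p = 0.0461), a call kept in 9 of 20 alternatives. FASLG stayed at or below 0.0515 TPM in vector and was listed at 0 in HIF1α/2α-ko. The soluble decoy osteoprotegerin (TNFRSF11B) was at 0.0773 to 0.259 TPM in vector and 0.0355 to 0.161 in HIF1α/2α-ko. The other soluble decoy, TNFRSF6B, was at 0 to 0.169 TPM in vector and 0.216 to 0.393 in HIF1α/2α-ko. It was at 0.578 to 0.758 TPM in HIF1α-ko and 0.435 to 0.506 in HIF2α-ko. Every knockout library was thus above every vector library for TNFRSF6B, all below 1 TPM. Neither soluble decoy was tested.

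Among the partners and regulators of the death-inducing complexes, 7 of 16 tested genes were called higher and 0 lower in HIF1α/2α-ko, with a median of 0.54, where 31.8% of all tested genes were higher and their median was 0.21. TRAF3, a ubiquitin ligase adaptor, rose by 1.81 ± 0.17 (adjusted p = 8.76e-06), from 3.27 to 3.83 TPM to 13.4 to 17.0. RBCK1 and RNF31, both parts of the linear ubiquitin ligase complex, rose by 1.14 ± 0.16 (adjusted p = 0.000106) and 0.73 ± 0.15 (adjusted p = 0.00211). CFLAR, which encodes the caspase-8 inhibitor FLIP, was at 17.6 to 22.1 TPM in vector and 17.9 to 20.8 in HIF1α/2α-ko, a change of 0.03 (95% interval -0.29 to 0.34). CASP10, the other initiator caspase of this complex, gave -0.04 ± 0.28 (adjusted p = 0.915). With median ratio scaling 5 of the 16 were called higher (23.5% of all genes), and without replicate 1 of every group 11 were higher and 2 lower (45.3% and 19.0% of all genes).

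In the downstream caspases and the mitochondrial arm 10 of 14 tested genes were called higher and 0 lower, with a median of 0.63, beside 31.8% of all genes higher. BAK1, which permeabilizes the outer mitochondrial membrane, rose by 2.25 ± 0.15 (adjusted p = 9.27e-07), from 2.02 to 2.39 TPM to 13.5 to 15.2. CYCS, cytochrome c, rose by 2.53 ± 0.21 (adjusted p = 4.4e-06), and BAX by 0.94 ± 0.13 (adjusted p = 0.000113). BID, which caspase-8 cleaves to link the receptors to mitochondria, was at 68.95 to 69.9 TPM in vector and 62.2 to 73.4 in HIF1α/2α-ko, with a change of -0.06 ± 0.11 (adjusted p = 0.688). The list also holds XIAP, an inhibitor of caspases, which rose by 1.34 ± 0.21 (adjusted p = 0.000273), from 4.03 to 5.92 TPM to 10.4 to 17.8. With median ratio scaling 7 were called higher and 1 lower.

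**Figure D4:**
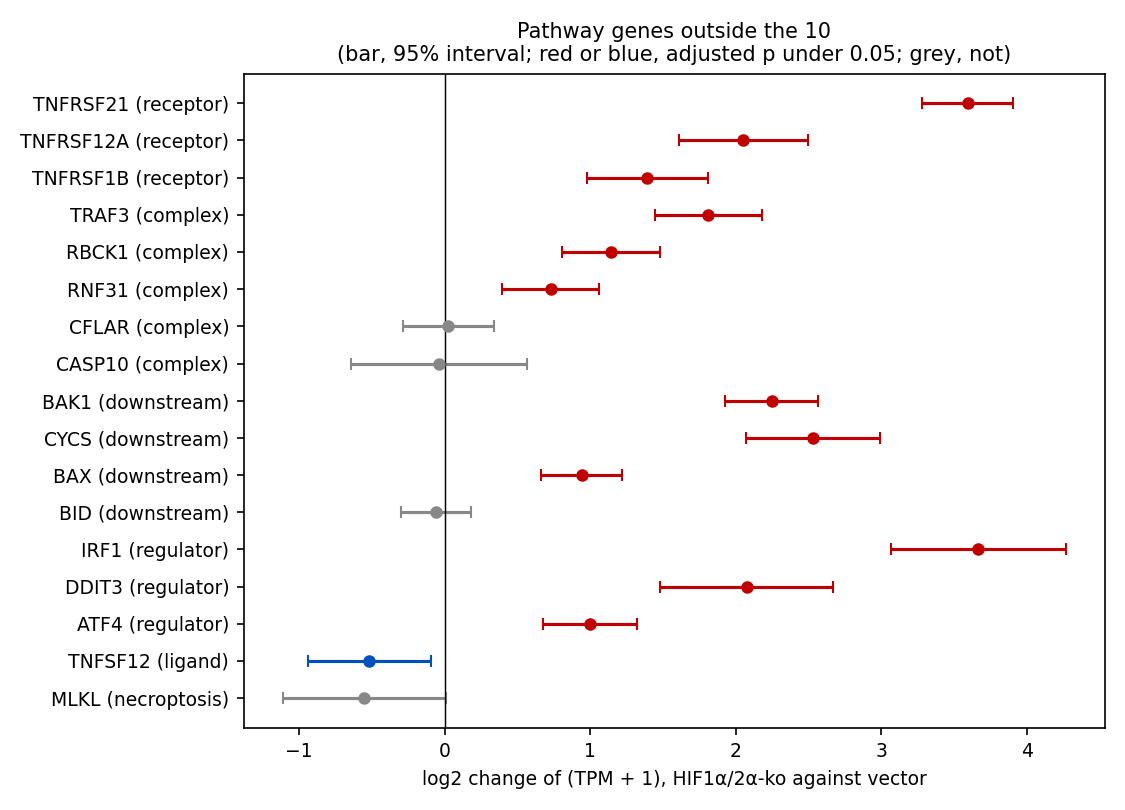
Points give the log2 change of TPM + 1 in HIF1α/2α-ko against vector (x axis) for pathway genes outside the 10, with 95% intervals and the list of each in brackets. TNFRSF21 at 3.59 and IRF1 at 3.66 lie furthest to the right, and the intervals of CFLAR, CASP10 and BID include 0.

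Among 15 known regulators of the death receptors and their reporters, 10 were called higher and 0 lower in HIF1α/2α-ko, with a median of 1.00, beside 31.8% and 14.8% of all genes. IRF1, an interferon-responsive factor, rose by 3.66 ± 0.28 (adjusted p = 2.3e-06), from 1.54 to 4.39 TPM to 38.3 to 48.1. DDIT3, which encodes CHOP, a stress factor known to act on the DR5 gene, rose by 2.08 ± 0.27 (adjusted p = 8.41e-05), and ATF4, the factor upstream of CHOP, by 1.00 ± 0.15 (adjusted p = 0.000195). Whether these transcripts bear on TNFRSF10B was not tested. In HIF1α-ko 4 of the 15 were called higher and 2 lower (17.3% and 8.77% of all genes), and with HIF2α-ko 1 was higher (5.07%). Of the necroptosis genes, RIPK3 and ZBP1 were listed at 0 in all 12 libraries, and MLKL gave -0.55 ± 0.26 (adjusted p = 0.0966). In the single knockouts, 4 of the 9 other receptors, 1 of the 16 partners and 7 of the 14 downstream genes were called higher in HIF1α-ko, where 17.3% of all genes were. In HIF2α-ko the counts were 2, 2 and 1, where 5.07% of all genes were.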

How the data were processed

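Messenger RNA of 12 U87 libraries in 4 groups of 3 was measured by sequencing. The authors deposited TPM per gene, which sum to between 999955 and 999982 per library, so depth is unknown. The submitters' processing notes name FastQC 0.11.2, Trimmomatic 0.36, HISAT2 2.0, bedtools 2.26.0 and the genome build GRCh38. The counter, the annotation and the strand setting are not given in the sources used here. The record gives 72 h of hypoxia, and the methods of the study give a shorter time for mRNA detection. Vector libraries were matched to their columns by the absence of a knockout name.

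Values were taken as log2(TPM + 1), and a gene was kept where 3 or more libraries had a TPM of 1 or more. The 11731 genes kept, of 20263, were fitted together in limma 3.58.1 (R 4.3.3) with a mean-variance trend. The study states no test for these data. There were 7 contrasts, namely each knockout against vector, the 3 pairs of knockouts and the interaction, with Benjamini-Hochberg adjustment within each and a threshold of 0.05. The fit was also run on simulated data in which genes and libraries varied independently. Those data held no shared shift of replicate 1, so that run cannot show how such a shift affects the calls. Python 3.11.15 with pandas 2.3.3 and numpy 2.4.6 wrote the tables, and matplotlib 3.10.9 drew the plots.

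The members and lists were chosen with earlier results of these data known. All 10 members are named, and from each other list the 3 genes with the smallest p among those called in HIF1α/2α-ko, with CFLAR, CASP10, TNFRSF11B and BID whatever their values. FASLG, FAF1, XIAP, MLKL, RIPK3, ZBP1 and TNFRSF6B were named after their values were seen. For TNFSF10, TNFRSF10B and FAS the 3 genes with the highest Pearson's r are named. Gene positions and overlaps are from GENCODE 29, and the promoters are from RefSeq.

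Deviations from the group means of same-numbered libraries correlated at 0.196 to 0.508 between knockout groups. Replicates 2 and 3 of different groups correlated at 0.158 to 0.302, and replicate 1 with replicates 2 or 3 at -0.416 to -0.269. Since every same-numbered pair was over 0.1, the numbers were taken to pair those groups, though only replicate 1 stands apart. This rests on the values, as what a number stands for is not stated. Between vector and knockouts the correlation was -0.0265 to 0.163, and these were not taken as paired. A replicate block in a contrast with vector is thus an alternative only. Alternatives were a pseudocount of 0.1, no filter, a mean TPM of at least 5, median ratio scaling, quantile normalization, no trend, a fit of the compared groups only, a replicate block, and each library left out. Leaving out replicate 1 of every group was added after the data had been seen.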

Additional observations from a re-analysis of the deposited data

Results flagged for a closer look

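The change of TNFRSF10C in HIF1α/2α-ko differed from the sum of its changes in HIF1α-ko and HIF2α-ko. The interaction term was -1.42 on the log2 scale (limma adjusted p = 0.000544, 95% interval -1.78 to -1.05). All 3 HIF1α/2α-ko libraries were below all other libraries, at 13.1 to 15.2 TPM. The term was called in all 20 alternatives, at -1.62 to -1.36.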

How the results depend on the processing

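The calls of TNFRSF10B, TNFRSF10C and TNFRSF10D in HIF1α/2α-ko against vector held in all 21 alternatives. Of the 8 tested members, the number called in HIF1α-ko was 2. With no filter none of the 8 was called, and the 1 call among the 10 genes was TNFSF10. The number was 1 with a mean TPM of at least 5, 4 with the replicate block, 5 without replicate 1 of every group (added after the data had been seen) and 0 to 3 with 1 library left out. In HIF2α-ko it was 1, and 0 in a fit of the compared groups only, 2 with the replicate block, 5 without replicate 1 of every group and 0 to 1 with 1 library left out. In HIF1α/2α-ko it was 3, and 4 (TNFRSF1A added) with median ratio scaling, quantile normalization or the replicate block, 7 without replicate 1 of every group and 3 to 5 with 1 library left out. Against HIF2α-ko the dual knockout gave 3, and 5 with median ratio scaling, 5 with the replicate block in the knockout groups, 6 without replicate 1 of every group and 3 to 5 with 1 library left out. Median ratio scaling called 22.6% of all tested genes higher and 21.8% lower in that comparison. HIF2α-ko against HIF1α-ko gave 2, and 1 with a mean TPM of at least 5, 4 in a fit of those groups only, 4 without replicate 1 of every group and 1 to 4 with 1 library left out. The interaction gave 1, and 2 with median ratio scaling, 3 with quantile normalization and 2 with the replicate block. It gave 6 without replicate 1 of every group and 1 to 2 with 1 library left out. For the interaction, median ratio scaling called 11.1% of all tested genes higher and 9.57% lower, and quantile normalization 11.5% and 11.2%. In HIF1α/2α-ko against vector these shares were 23.5% and 23.0%, and 24.1% and 24.3%. For other alternatives the share of all genes is not given, save against vector without replicate 1 of every group. Counts without such a share are not read as a result about the members.

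The median change of the tested members became 0.0075 in HIF1α-ko with median ratio scaling, and -0.46 and -0.43 in HIF1α/2α-ko with median ratio scaling and quantile normalization. Changes that turned in sign were all of genes not called. Median ratio scaling moved HIF2α-ko to 0.0384 for FAS and 0.0254 for RIPK1, and quantile normalization to 0.0183 and 0.0105. Without replicate 1 of every group FAS was 0.21 for HIF2α-ko, 0.19 for HIF1α-ko and 0.0626 for the dual knockout. RIPK1 in HIF2α-ko became 0.0013 with a pseudocount of 0.1 and 0.55 without replicate 1 of every group, and CASP8 in HIF1α/2α-ko became 0.47 without them, both then called. With 1 library left out, FAS ranged from -0.40 to 0.23 in HIF1α-ko, -0.25 to 0.38 in HIF2α-ko and -0.38 to 0.25 in HIF1α/2α-ko, RIPK1 from -0.18 to 0.30 in HIF2α-ko and CASP8 from -0.66 to 0.17 in HIF1α/2α-ko. The cause was not tested. TPM keeps no depth, so the precision of TNFSF10 and TNFRSF10A, below 1 TPM, cannot be given.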
